A study of Mus musculus with 14 samples.

Results

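The genes described here are 46 interferon-stimulated and antigen presentation genes in mouse liver. They were listed by name, with earlier results of these data known, from the 24411 genes named in the deposited count tables. The list holds 4 interferon signalling factors, 14 small and antiviral effectors, 3 RNA sensors or their regulators, 3 ADP-ribosylation and ubiquitin partners, 8 interferon-induced GTPases, 7 genes of MHC class I and peptide loading, 3 immunoproteasome subunits and 4 genes of MHC class II. After a filter on low counts, 43 of the 46 genes were tested, among 9644 genes tested in all. Oas1a, Tgtp1 and Xaf1 had too few reads and were not tested.

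Interferons are secreted proteins that warn cells of infection. Type I interferon acts through a complex that holds STAT2 and IRF9 and binds a DNA element called ISRE, and genes that respond to type II interferon often carry an element called GAS. The induced genes block viral replication, load peptides onto MHC class I molecules on most cells, hepatocytes included, and raise MHC class II on professional antigen-presenting cells, which in liver include Kupffer cells, dendritic cells and B cells.

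The study crossed a liver deletion of Rbbp5, which encodes a core subunit of the histone H3 lysine methyltransferase complexes, with a low dose of tunicamycin, a drug that blocks N-linked glycosylation and so stresses the endoplasmic reticulum (ER). All mice were male littermates of 5 to 7 months with floxed Rbbp5 on both alleles (flox/flox), and LKO mice also carried Alb-CRE (+/-), in which the albumin promoter drives Cre mainly in hepatocytes. Mice without Cre (Alb-CRE -/-) are called WT, so WT mice also carry the floxed alleles. Which other liver cells of LKO mice keep Rbbp5 was not measured. The labels spell the genotype RRBP5 LKO, and the design text spells it RBBP5 LKO. Mice received 0.05 mg/kg tunicamycin in 500 µl of 3% DMSO in PBS by intraperitoneal injection between 9 and 10 in the morning, or that vehicle alone, and livers were taken 8 hours later. Libraries numbered 3 for each treatment in WT mice and 4 for each treatment in LKO mice.

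The libraries labelled LKO vehicle 3 and 4 differed by little more than counting noise (chi-square per degree of freedom 1.12, against 3.38 to 25.9 in the 17 other pairs within groups). They were summed and counted as 1 sample, called LKO vehicle 3, which left 13 samples. Sense-strand reads on genes ranged from 6507018 to 13519421 per library, of which 72.5 to 75.5% fell on Rn45s, the ribosomal RNA precursor, although the labels give polyA RNA. Without Rn45s, 1704479 to 3551398 reads remained, and the 46 genes together held 5947 to 14501 reads per library, or 0.33 to 0.412% of these. Rbbp5 itself was lower in LKO livers, at 2.90 ± 0.78 CPM (SD, n = 7; CPM are reads relative to the effective library total) against 5.28 ± 0.78 in WT (SD, n = 6; log2 fold change -0.89, edgeR adjusted p = 0.0181). One LKO vehicle sample, at 4.15, overlapped the lowest WT sample, at 4.07. The 7 hepatocyte markers summed to between 14100 and 24400 CPM over all groups, and 1 of them, Hnf4a, was lower in LKO livers after tunicamycin (log2 -0.54, edgeR adjusted p = 0.0405) and averaged over treatments (-0.34, adjusted p = 0.0475).

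The DNA elements are shown first, because they are what the interferon-stimulated genes are known to share and the rule for choosing them did not use sequence. Promoters of 300 bases (250 before to 50 after the start site) were given by RefSeq, on GRCm38.p6, for 34 of the 46 genes. Ly6e, Ifi27, Ifi27l2b, Usp18, Iigp1, Parp9, Parp14, Dhx58, Nlrc5, Tap2, H2-Ab1 and Cd74 had no entry in that table. An ISRE, searched on both strands as 2 blocks of the letters GAAA with any 2 bases between them, was found in 15 of the 34 genes (44.1%) and in 3.99% of all 27025 genes in the table. A GAS element, searched as TTCNNNGAA, which reads the same on both strands, was found in 9 of the 34 genes (26.5%) and in 9.55% of all genes. Both elements stood in 5 genes. The windows below show the element in capitals with up to 20 bases on each side, 5′ to 3′ on the strand of the gene, for genes whose values are described later. Only 1 element is in capitals in each window, and the lower-case bases can hold others. Examples are another ISRE in the windows of Ifit1 and Isg15 and the GAS element in that of Igtp.
B2m, ISRE, chr2:122147528-122147577, plus strand: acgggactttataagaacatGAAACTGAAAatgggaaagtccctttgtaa
Isg15, ISRE, chr4:156200855-156200904, minus strand: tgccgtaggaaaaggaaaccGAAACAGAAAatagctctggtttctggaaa
Ifit1, ISRE, chr19:34640784-34640833, plus strand: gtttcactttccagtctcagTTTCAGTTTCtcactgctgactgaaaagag
Stat2, ISRE, chr10:128270256-128270305, plus strand: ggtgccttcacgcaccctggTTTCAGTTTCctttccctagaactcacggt
Gbp7, ISRE, chr3:142530263-142530312, plus strand: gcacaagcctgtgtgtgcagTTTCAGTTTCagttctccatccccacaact
Igtp, ISRE, chr11:58199502-58199551, plus strand: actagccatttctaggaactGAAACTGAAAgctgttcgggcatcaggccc
Irf1, GAS, chr11:53769904-53769952, plus strand: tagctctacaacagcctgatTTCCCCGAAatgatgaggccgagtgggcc
Psmb8, GAS, chr17:34198078-34198126, plus strand: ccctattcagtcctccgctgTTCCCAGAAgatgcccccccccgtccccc
In B2m and Igtp the ISRE reads GAAACTGAAA along the gene's strand, and in Ifit1, Stat2 and Gbp7 it reads TTTCAGTTTC, the same letters on the opposite strand.

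Levels between genes were set side by side per transcript length, as median FPKM (a read measure divided by both the length of the transcript and the depth) over 12 samples. B2m, the light chain of every MHC class I molecule, stood far above the rest at 257 FPKM, with single samples from 233 to 306. The class I heavy chains H2-K1, at 27.8 FPKM, and H2-D1, at 19.5, came next, followed by the GTPase Iigp1 at 16.6 and the membrane protein Ly6e at 13.3. The ranges of H2-K1 (21.4 to 35.3) and H2-D1 (15.6 to 24.2) overlapped, as did those of H2-D1 and Iigp1 (13 to 19.9). Ly6e ranged from 5.10 to 23.5, the largest ratio of highest to lowest among these 5. Only these 5 genes had a median above 10 FPKM. The same measure lists Rn45s at 67201 to 73383 FPKM in the libraries used here. These levels therefore serve to order genes within this study and not to compare with other data. Genes widely used as markers of an active interferon response were low on this scale: Isg15, a ubiquitin-like modifier, had 1.83 FPKM, Irf7 1.36, Ifit1 0.414, Rsad2 (viperin) 0.194 and Oas1a 0.106. Type I and type III interferon transcripts were not seen: Ifnb1, Ifnl2, Ifnl3 and the Ifna genes measured had 0 reads in every library, and Ifng, type II interferon, had at most 1 read in a library.

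Averaged over treatments, the genotype comparison asked which of the 46 genes differed between LKO and WT livers. Ly6e, Ifi27l2b and Parp14 rose in LKO livers, none of the 43 tested genes fell, and the rest did not pass the test. That is 3 of 43 (6.98%) at an adjusted p under 0.05 in edgeR's quasi-likelihood test, where 2.21% of all 9644 genes passed and 1.35% passed as higher. The median log2 fold change over the 43 genes was 0.09, with 28 above 0, against -0.004 over all genes tested. With scaling by total counts in place of TMM, 34 of the 43 were above 0, but the median over all genes moved up as well, from -0.004 to 0.072. No gene of the 43 had all 7 LKO samples apart from all 6 WT samples (1.09% of all genes did). For 37 of the 43 genes the estimate lay within 0.5 log2 units of 0, and for 35 the 95% interval lay within 1 unit. The plot of genotype effects shows these genes by role.

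**Figure D1:**
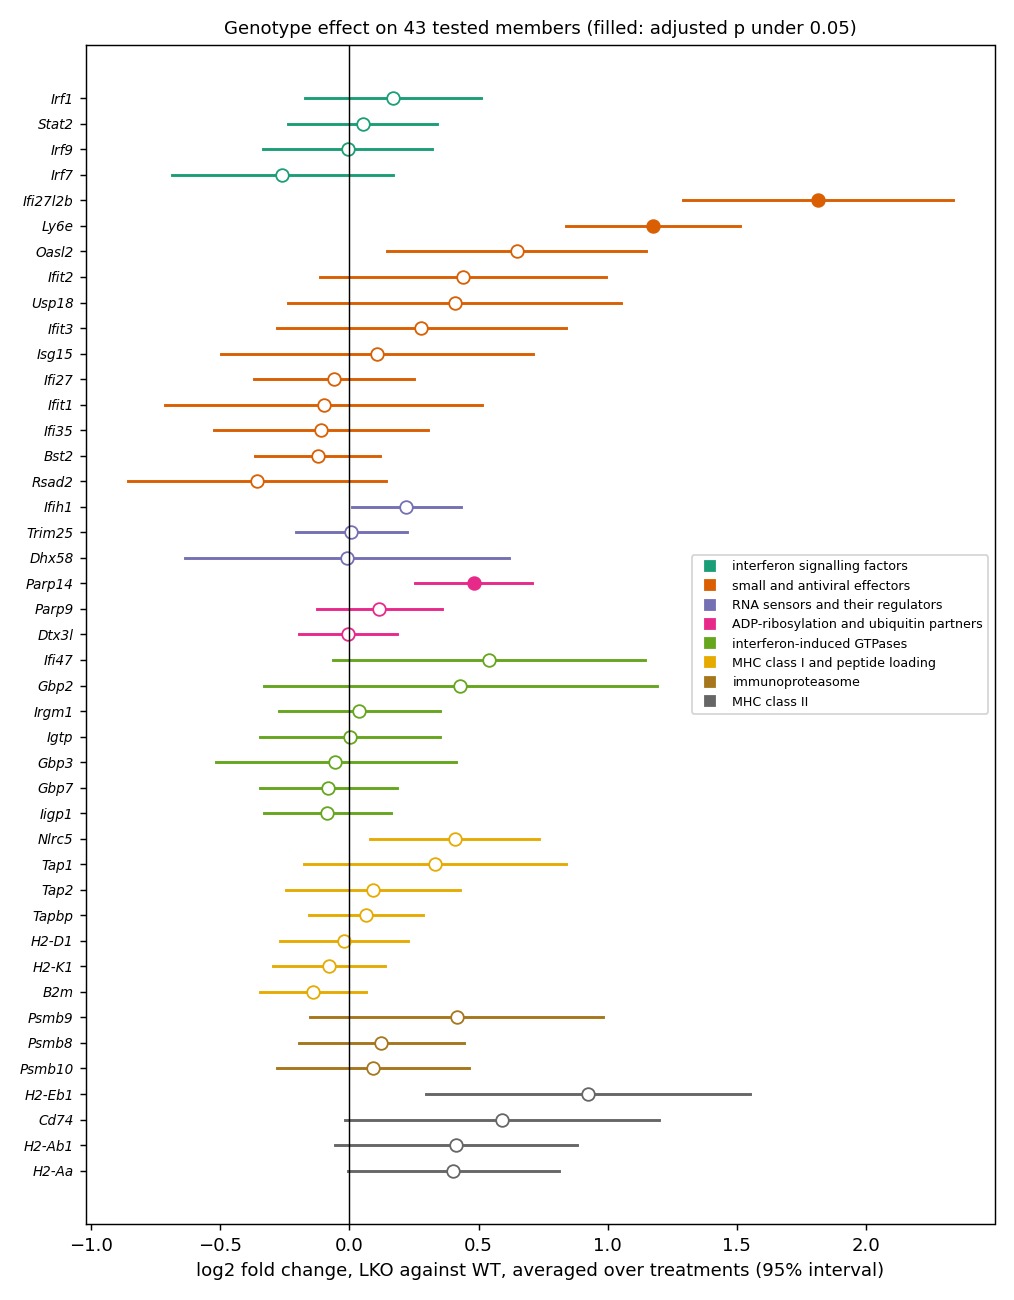
Log2 fold change of LKO against WT, averaged over treatments, with its 95% interval, for the 43 tested genes, coloured by role and ordered within each role. Filled points are the 3 genes with an adjusted p under 0.05: Ifi27l2b at 1.81, Ly6e at 1.17 and Parp14 at 0.48. Most other genes lie within 0.5 of 0, and the 4 MHC class II genes lie between 0.40 and 0.92 with open points.

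Ly6e (chromosome 15, 74955025 to 74959904) encodes a small lipid-anchored surface protein of the Ly6 family that is induced by interferon and restricts coronaviruses. WT vehicle livers had 28.9, 21.3 and 19.8 CPM, and LKO vehicle livers had 52.8, 79.9 and 57.6. After tunicamycin, WT livers had 54.5, 51.7 and 25.6 CPM, and LKO livers had 77.1, 77.3, 83.1 and 92.1. Within each treatment every LKO sample was above every WT sample, but across treatments the lowest LKO sample, with vehicle, lay below the highest WT sample, with tunicamycin. The averaged log2 fold change was 1.17 ± 0.16 (SE; 2.26-fold, 95% interval 0.84 to 1.51 on the log2 scale, edgeR adjusted p = 0.00252). Ly6e kept this call in all 27 alternative settings, with log2 values from 1.04 to 1.32. Other Ly6 family genes in the tables had few reads: Ly6a had at most 11, Ly6c2 at most 6 and Ly6d at most 16 in a sample.

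Ifi27l2b (chromosome 12, 103450898 to 103457223) belongs to the family of small interferon-induced mitochondrial and nuclear membrane proteins around Ifi27. WT vehicle livers had 2.75, 2.18 and 2.92 CPM, and LKO vehicle livers had 5.69, 15.5 and 9.61. After tunicamycin, WT livers had 6.88, 5.35 and 1.85 CPM, and LKO livers had 15.5, 14.1, 16.7 and 12.5. As with Ly6e, the genotypes did not overlap within a treatment, and the lowest LKO vehicle sample lay between the WT tunicamycin samples. The averaged log2 fold change was 1.81 ± 0.25 (SE; 3.52-fold, 95% interval 1.29 to 2.34, edgeR adjusted p = 0.00252), and the call held in all 27 alternative settings, from 1.33 to 2.02. Its neighbour on chromosome 12, Ifi27, had 6.80 to 12.6 CPM over all samples and a log2 fold change of -0.06 (95% interval -0.37 to 0.25, adjusted p = 0.881). Whether the 2 genes differ in this was not tested. RefSeq's spans of Ifi27 and Ifi27l2a overlap, and reads that fit more than 1 gene of this family may be missing from these counts.

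Parp14 (chromosome 16, 35831892 to 35871518) encodes an ADP-ribosyltransferase that acts in macrophage and antiviral signalling. WT vehicle livers had 15.7, 15.9 and 14.3 CPM, and LKO vehicle livers had 22.9, 21.6 and 16.5. After tunicamycin, WT livers had 18.7, 15.1 and 11.6 CPM, and the 4 LKO livers lay close together at 22.7, 22.8, 22.2 and 22. Again the genotypes separated within each treatment, while LKO vehicle 3 fell below WT tunicamycin 1. The averaged log2 fold change was smaller, 0.48 ± 0.11 (SE; 1.40-fold, 95% interval 0.25 to 0.71, edgeR adjusted p = 0.0292). This call held in 16 of 27 alternative settings and in 4 of the 13 that left out 1 sample. It was lost without any of the WT vehicle samples, WT tunicamycin 3, LKO vehicle 1 or 2, or LKO tunicamycin 2, 3 or 4, with adjusted p up to 0.0763. Parp9 and Dtx3l, which encode an ADP-ribosyltransferase and its ubiquitin ligase partner and share a divergent locus next to Parp14, did not pass. Dtx3l had 24.0 ± 1.5 CPM in WT vehicle and 25.4 ± 3.05 in LKO vehicle livers (SD, n = 3 each), and 26.7 ± 4.36 (SD, n = 3) and 25.1 ± 0.93 (SD, n = 4) after tunicamycin. Its averaged log2 fold change was -0.01 (95% interval -0.20 to 0.18), and Parp9 had 0.12 (adjusted p = 0.647).

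**Figure D2:**
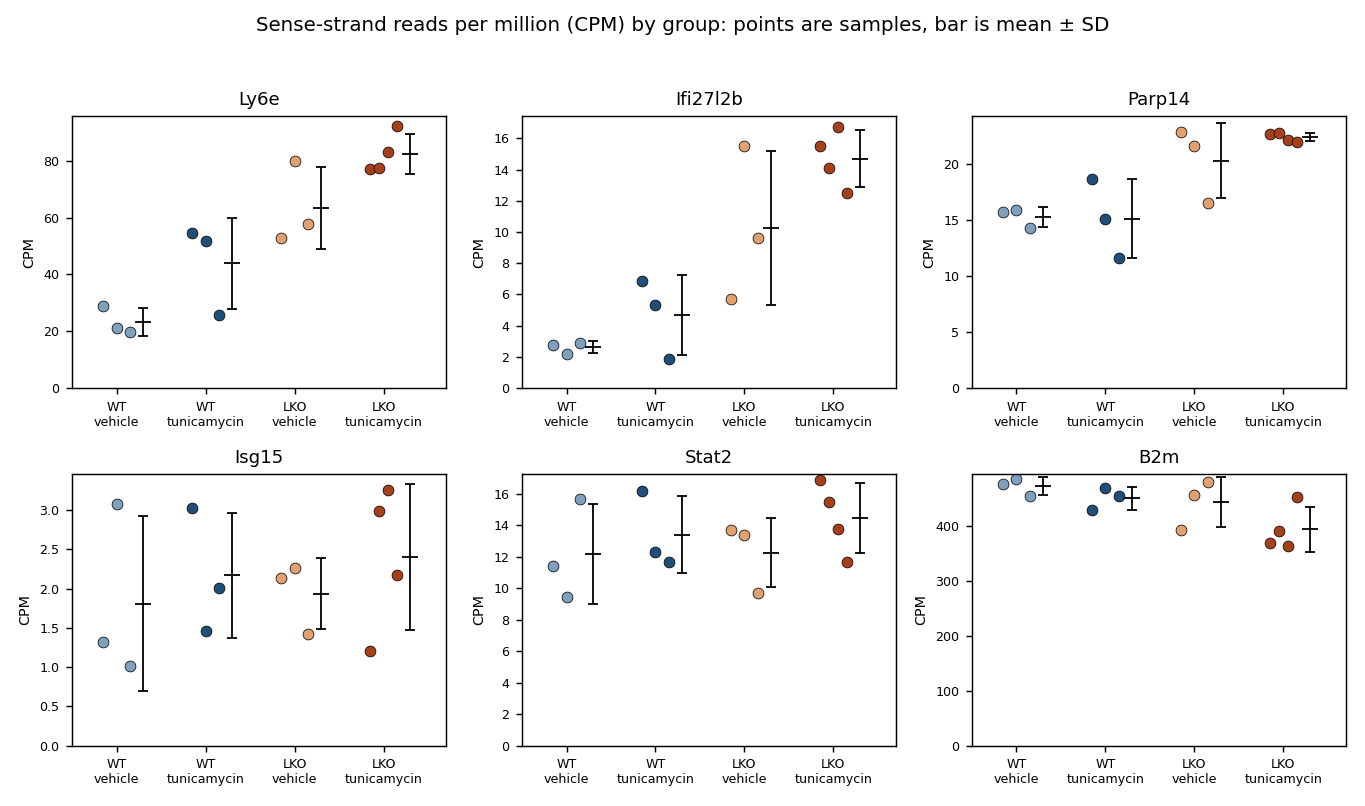
CPM on a linear axis from 0, by group, for the 3 genes that rose in LKO livers (Ly6e, Ifi27l2b, Parp14) and for Isg15, Stat2 and B2m. Each point is a sample and the bar beside it is the mean ± SD of 3 samples, or of 4 in LKO tunicamycin. In the upper panels the LKO samples lie above the WT samples of the same treatment, and in the lower panels the genotypes overlap within each treatment.

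Counts from bulk liver cannot tell more RNA per cell from more cells of a type, and the genotype groups also differed in markers of other cells. Of the stellate cell and fibroblast markers, Col1a1, Col3a1 and Pdgfrb were higher in LKO livers in the averaged comparison (log2 fold changes 1.88, 1.36 and 1.10, edgeR adjusted p = 0.0101, 0.0173 and 0.0162). That is 3 of 6 tested, of 7 listed, and the summed level of the list ran from 63.8 to 105 CPM in WT vehicle, 89.2 to 125 in WT tunicamycin, 111 to 151 in LKO vehicle and 104 to 163 in LKO tunicamycin livers. Spp1, from the bile duct list, was higher too (1.79, adjusted p = 0.0270), 1 of 2 tested, of 5 listed. The bile duct list summed to 8.60 to 11.7 CPM in WT vehicle, 8.49 to 42.5 in WT tunicamycin, 17.4 to 55.2 in LKO vehicle and 35.8 to 111 in LKO tunicamycin livers. Spp1 had 35.6 and 25.8 CPM in WT tunicamycin 1 and 2 and 5.87 in WT tunicamycin 3, the order of these samples in Ly6e and Ifi27l2b. A list of neutrophil markers had this order too, with sums of 7.84, 4.22 and 0.309 CPM. So did the Kupffer cell and macrophage list (113, 107 and 84.6 CPM) and the leukocyte marker Ptprc (5.64, 4.22 and 3.55 CPM). The stellate cell and fibroblast list did not, at 89.2, 125 and 103 CPM. Nor did the lists of endothelium, hepatocytes, dendritic cells, T and NK cells, or B and plasma cells. In LKO tunicamycin livers the orders differed. The bile duct list summed to 111, 60.4, 35.8 and 44.3 CPM in samples 1 to 4, and the neutrophil list to 3.46, 7.29, 3.97 and 3.37 CPM. Ly6e was lowest in sample 1 and Ifi27l2b highest in sample 3. The part of these cells in the Ly6e, Ifi27l2b and Parp14 results was not tested.

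The genotype comparison was also made within each treatment. With vehicle, Ly6e rose in LKO livers and was the only one of the 43 genes to pass (2.33%, against 0.0415% of all genes, which is 4 genes). Its log2 fold change was 1.44 ± 0.23 (SE; edgeR adjusted p = 0.0360), and the call was lost without WT vehicle 1, 2 or 3, LKO vehicle 1 or 2, or LKO tunicamycin 2, with log2 values of 1.24 to 1.61 over the 13 samples left out in turn. Ifi27l2b had 2.0 ± 0.37 (SE; adjusted p = 0.0574) and Parp14 0.40 ± 0.16 (SE; adjusted p = 0.516). The third smallest p, ahead of Parp14, was that of Irf7, the factor that amplifies type I interferon production, which had 9.22, 6.41 and 7.58 CPM in WT and 4.86, 4.96 and 4.21 in LKO livers. These groups did not overlap, but the log2 difference of -0.74 ± 0.28 (SE) had an adjusted p of 0.499. Groups did not overlap for 9 of the 43 genes, 6 higher and 3 lower in LKO, where 15.1% of all genes showed no overlap, 7.52% as higher and 7.58% as lower. LKO vehicle 2, the deepest library, stood apart from libraries 1, 3 and 4 of its group (chi-square per degree of freedom 13.1, 14.9 and 16.5). Library 1 had 6.68 and 7.03 against libraries 3 and 4. LKO vehicle 2 also had the highest Ly6e and Ifi27l2b of the vehicle livers. Over the 43 genes the median log2 value with vehicle was 0.12, with 31 above 0. Without LKO vehicle 2 it was 0.013, with 22 of 44 tested members above 0.

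After tunicamycin, Ifi27l2b passed alone (1 of 43, 2.33%, against 0.861% of all genes), its log2 value being 1.63 ± 0.33 (SE; adjusted p = 0.0332 in edgeR). Dropping a single sample ended this call in 8 of 13 cases, namely WT vehicle 1 or 3, WT tunicamycin 1 or 3, or any of the LKO tunicamycin samples, with log2 values from 1.25 to 2.03 over the 13 cases. Ly6e had 0.91 ± 0.22 (SE; adjusted p = 0.0594) and Parp14 0.56 ± 0.15 (SE; adjusted p = 0.0876). Groups did not overlap for 4 genes, all higher in LKO: these 3 and Nlrc5, the transactivator of MHC class I genes (12.9% of all genes did not overlap, 6.34% as higher). Scaling by total counts moved the median of all genes from -0.01 to 0.14 in this comparison and the number of the 43 genes above 0 from 26 to 38.

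Tunicamycin against vehicle asked whether ER stress alone moved these genes. In WT livers, none of the 43 genes passed in edgeR, where 0.363% of all genes, or 35 genes, did. An unadjusted p under 0.05 was seen for 3 of the 43 genes and for 14.8% of all genes. DESeq2, which gave no adjusted p for 26 of the 43, Irf7 among them, called 1 gene, Ly6e. It called 3.14% of all genes that had an adjusted p. The median log2 change was 0.15 over the 43 genes, with 26 above 0, and 0.01 over all genes. With total count scaling the medians were -0.04 and -0.18, with 17 of the 43 above 0. The sign of the list's median turned with the scaling, which moved all genes, and the list's median lay above that of all genes under both. Ly6e had the smallest p, with a log2 change of 0.91 ± 0.24 (SE; edgeR adjusted p = 0.0933). The WT tunicamycin samples 1 and 2 stood at about the level of the lowest LKO livers, while sample 3, at 25.6 CPM, lay within the WT vehicle range. Without WT tunicamycin 3 the change was 1.18 with an adjusted p of 0.00144, and over the other samples left out it did not pass. Leaving out WT tunicamycin 3 also raised the calls over all genes to 615 (6.19%) and the median of the tested members to 0.25. This sample differed most from its group, with a chi-square per degree of freedom of 25.9 and 25.8 against samples 1 and 2. Those 2 samples had 6.23 with each other. The tunicamycin result in WT livers thus depends strongly on 1 sample. Ifi27l2b had the same pattern of samples and 0.86 ± 0.44 (SE; adjusted p = 0.370).

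Gbp7, a guanylate-binding GTPase of cell-autonomous immunity (an ISRE and GAS elements stand in its promoter), had 9.34, 9.61 and 8.60 CPM in WT vehicle and 4.95, 7.13 and 6.64 in WT tunicamycin livers. The groups did not overlap, which held for 17.3% of all genes and for 4 of the 43, and the log2 change of -0.57 ± 0.19 (SE) had an adjusted p of 0.168. Irf7 had 6.88, 2.59 and 4.63 CPM in WT tunicamycin livers, and its log2 change of -0.70 ± 0.30 (SE) had an adjusted p of 0.289. In these genes too the tunicamycin samples spread widely.

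In LKO livers, tunicamycin gave 0 of 43 genes in edgeR (0.0311% of all genes, or 3 genes, passed), 3 at an unadjusted p under 0.05 (12.2% of all genes) and 0 in DESeq2, which gave no adjusted p for 33 of the 43, Tap2, Gbp3 and Psmb10 among them. Tap2, a subunit of the transporter that carries peptides into the ER, had 2.73, 3.07 and 2.91 CPM with vehicle and 3.46, 3.38, 4.79 and 4.56 after tunicamycin. These groups did not overlap, as held for 11.6% of all genes, and the log2 change was 0.49 ± 0.20 (SE; edgeR adjusted p = 0.352). Gbp3, another guanylate-binding GTPase, had 2.49, 1.53 and 1.66 CPM with vehicle and 2.0, 2.99, 2.65 and 3.58 after tunicamycin (0.62 ± 0.28, SE; adjusted p = 0.389). Psmb10, an immunoproteasome catalytic subunit, had 5.81, 3.43 and 3.80 CPM with vehicle and 2.13, 2.99, 3.77 and 3.04 after tunicamycin (-0.48 ± 0.22, SE; adjusted p = 0.398). In Gbp3 and Psmb10 the groups overlapped. Ly6e had 0.38 ± 0.21 (SE; adjusted p = 0.503), Ifi27l2b 0.49 ± 0.27 (SE; 0.507) and Parp14 0.15 ± 0.14 (SE; 0.730).

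**Figure D3:**
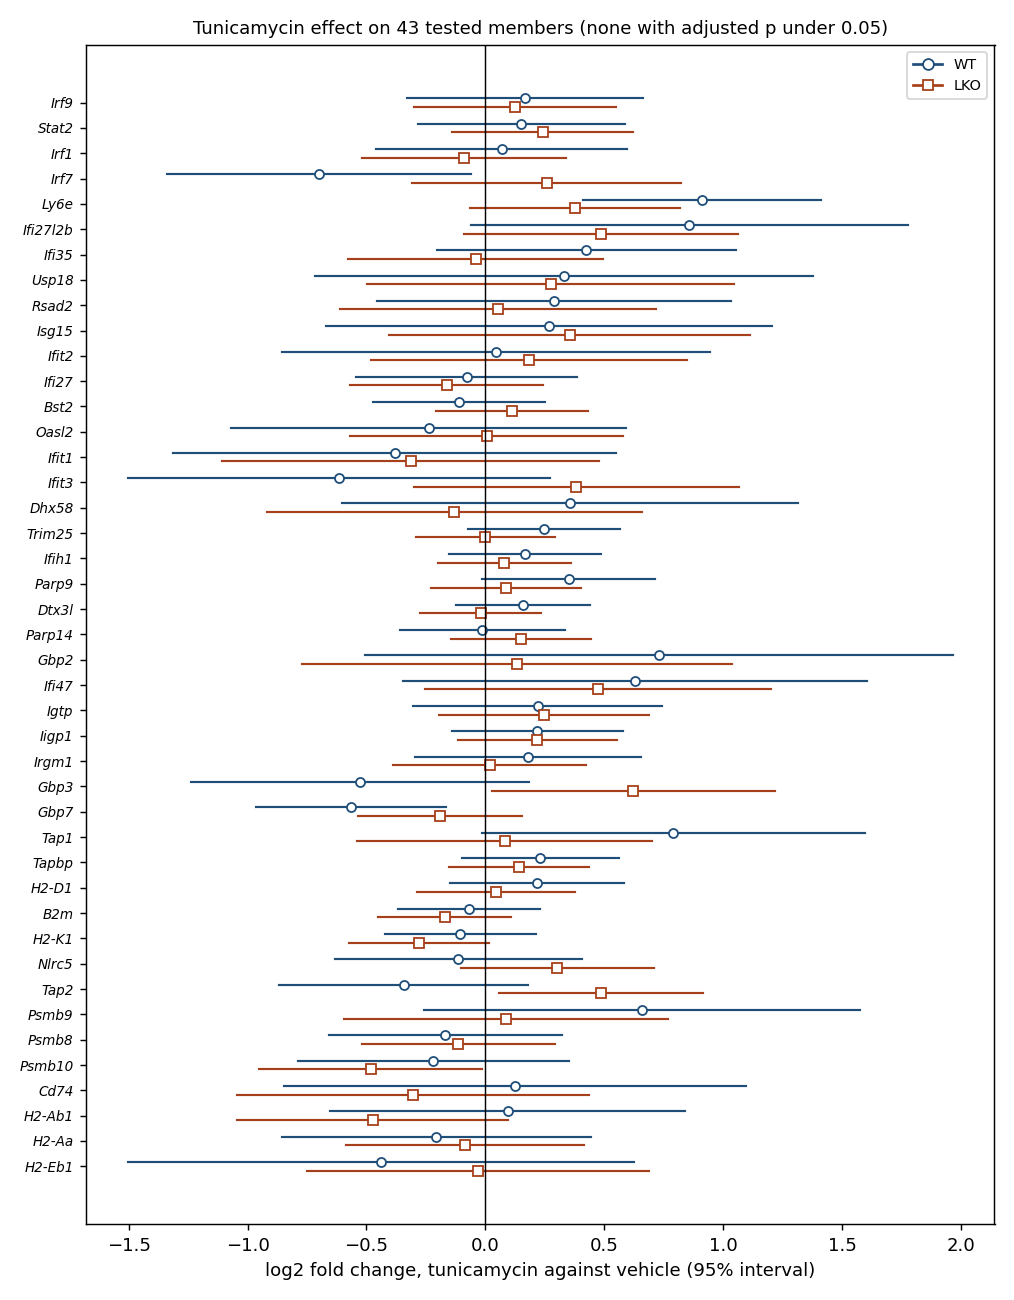
Log2 fold change of tunicamycin against vehicle with its 95% interval for the 43 tested genes, in WT (circles) and LKO livers (squares), ordered by role and by the WT value. No gene passed an adjusted p of 0.05 in either genotype. Ly6e has the largest WT value, 0.91, and Irf7 the lowest, -0.70.

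The interaction asked whether the tunicamycin effect differed between genotypes. None of the 43 genes, and none of all 9644 (0%), passed in edgeR, and DESeq2 called 0 of the 43. An unadjusted p under 0.05 was seen for 3 of the 43 genes and for 4.91% of all genes. These 3 were Gbp3 (1.15 ± 0.44, SE; edgeR adjusted p = 0.935), Tap2 (0.83 ± 0.32, SE; 0.935) and Irf7 (0.96 ± 0.40, SE; 0.938), each a log2 difference of the LKO effect minus the WT effect. Ly6e had -0.54 (95% interval -1.2 to 0.13). Ifi27l2b had -0.37 (95% interval -1.46 to 0.71) and Parp14 0.16 (95% interval -0.29 to 0.62).

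None of the 4 signalling factors passed in any of the 6 comparisons, although Irf7 had groups that did not overlap with vehicle, as given above. Stat2, which acts with IRF9 at the ISRE, had 11.4, 9.48 and 15.7 CPM in WT vehicle, 16.2, 12.3 and 11.7 in WT tunicamycin, 13.7, 13.4 and 9.73 in LKO vehicle and 16.9, 15.5, 13.8 and 11.7 in LKO tunicamycin livers. All 4 groups overlapped, and the averaged log2 fold change was 0.05 (95% interval -0.24 to 0.34, edgeR adjusted p = 0.888). Irf1, the GAS gene shown above, had 0.17 (95% interval -0.17 to 0.51), Irf9 -0.01 and Irf7 -0.26 (95% interval -0.69 to 0.17).

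Among the small and antiviral effectors other than Ly6e and Ifi27l2b, 10 were tested and none passed. Their averaged log2 values ran from -0.36 for Rsad2 to 0.65 for Oasl2, a member of the oligoadenylate synthetase family (edgeR adjusted p = 0.150). Isg15 had 1.02 to 3.26 CPM over the 13 samples and a log2 value of 0.11 (95% interval -0.50 to 0.71). Ifit1, which binds foreign RNA ends, had 0.98 to 3.20 CPM and -0.10 (95% interval -0.71 to 0.52). Both have ISREs in the windows shown. Both rest on few reads, 7 to 32 per sample for Isg15 and 7 to 38 for Ifit1. The untested effectors had 0 to 0.91 CPM (Oas1a) and 0.53 to 1.63 CPM (Xaf1).

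Ifih1 (MDA5), a sensor of long double-stranded RNA, had 17.5 ± 2.37 CPM in WT vehicle, 19.6 ± 0.76 in WT tunicamycin and 21.0 ± 3.49 in LKO vehicle (SD, n = 3 each), and 22.2 ± 2.35 in LKO tunicamycin livers (SD, n = 4). The averaged log2 value was 0.22 (95% interval 0.01 to 0.43, edgeR adjusted p = 0.256). Trim25, the ubiquitin ligase that acts on RIG-I, had 0.01, and Dhx58 (LGP2) -0.01. The related sensor Ddx58 (RIG-I), which is not among the 46, was higher in LKO livers: it had 8.06 ± 1.06 CPM in WT (SD, n = 6) and 12.7 ± 2.71 in LKO (SD, n = 7), a log2 difference of 0.61 ± 0.12 (SE; adjusted p = 0.0146 in edgeR). That call was lost without WT vehicle 1 (adjusted p = 0.0558).

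The interferon-induced GTPases, which attack vacuoles that hold pathogens, included the most abundant effector after the class I genes. Iigp1 had 85.9, 103 and 79.9 CPM in WT vehicle, 96.3, 133 and 84.1 in WT tunicamycin, 81.9, 99.6 and 72.2 in LKO vehicle and 91.5, 110, 98.1 and 94.5 in LKO tunicamycin livers. The groups overlapped throughout, and the averaged log2 value was -0.09 (95% interval -0.33 to 0.16, edgeR adjusted p = 0.757). Igtp, with the ISRE shown above, had 2.55 to 5.30 CPM over the 13 samples and a log2 value of 0.002 (adjusted p = 0.996). The other tested GTPases ran from -0.08 (Gbp7) to 0.54 (Ifi47), and none passed in any comparison. Tgtp1 had 0.15 to 1.18 CPM and was not tested. It has a close copy, Tgtp2, and reads that fit both may be missing from its count.

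None of the 7 genes of MHC class I and peptide loading passed in any of the 6 comparisons. B2m had 477, 485 and 454 CPM in WT vehicle, 428, 469 and 454 in WT tunicamycin, 393, 457 and 480 in LKO vehicle and 368, 390, 364 and 452 in LKO tunicamycin livers. Within each treatment the genotypes overlapped, while all LKO tunicamycin samples lay below all WT vehicle samples, and the averaged log2 value was -0.14 (95% interval -0.35 to 0.06, edgeR adjusted p = 0.472). H2-K1 had -0.08 (95% interval -0.30 to 0.14) and H2-D1 -0.02 (95% interval -0.27 to 0.23), so differences as large as those of Ly6e lay outside the intervals of all 3. Nlrc5 had 3.69 ± 0.76 CPM in WT (SD, n = 6) and 5.06 ± 0.93 in LKO livers (SD, n = 7), a log2 value of 0.41 (95% interval 0.08 to 0.73) with an adjusted p of 0.171. H2 genes are near-identical in stretches, and reads that fit more than 1 of them may be missing from these counts. All 3 immunoproteasome subunits had positive averaged values, and none passed. Psmb8, which carries a GAS element, had 4.96 ± 0.64, 4.40 ± 0.36 and 5.38 ± 1.06 CPM in WT vehicle, WT tunicamycin and LKO vehicle (SD, n = 3 each) and 4.85 ± 1.17 in LKO tunicamycin livers (SD, n = 4), a log2 value of 0.12 (95% interval -0.19 to 0.44).

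All 4 MHC class II genes had higher mean values in LKO livers in both treatments, and none passed in any of the 6 comparisons. Cd74, the invariant chain that guides class II molecules, had 5.51, 2.95 and 4.66 CPM in WT vehicle, 3.44, 2.27 and 8.64 in WT tunicamycin, 11, 5.62 and 7.00 in LKO vehicle and 3.60, 4.03, 8.97 and 7.71 in LKO tunicamycin livers. With vehicle the genotypes did not overlap, and after tunicamycin they did. Its averaged log2 value was 0.59 (95% interval -0.02 to 1.2, edgeR adjusted p = 0.290), and that of H2-Eb1, a class II beta chain, was 0.92 ± 0.30 (SE; 1.90-fold, adjusted p = 0.110). H2-Eb1 had 1.58 ± 0.73 CPM in WT (SD, n = 6) and 2.98 ± 0.98 in LKO livers (SD, n = 7), from 2 to 53 reads per sample. Without the filter on low counts it passed, with an adjusted p of 0.0248 in edgeR, where 3.16% of all genes passed. H2-Aa had 0.40 and H2-Ab1 0.41 (adjusted p = 0.283 and 0.335). Ciita, the master regulator of class II genes, had 0 to 11 reads per sample and was not tested.

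The 4 class II genes summed to 9.99 to 12.5 CPM in WT vehicle, 5.84 to 17.1 in WT tunicamycin, 13.3 to 24.5 in LKO vehicle and 10.1 to 21.2 in LKO tunicamycin livers. The highest sum was in LKO vehicle 1, which also had the highest sum of B and plasma cell markers, 2.73 CPM, and the lowest of Kupffer cell and macrophage markers, 59.5 CPM. Other samples did not keep this match. The next highest class II sum, 21.2 CPM in LKO tunicamycin 3, came with 1.02 CPM of B and plasma cell markers. The next highest sum of those markers, 1.6 CPM in LKO tunicamycin 1, came with a class II sum of 11.1 CPM. The B and plasma cell sums rest on 3 to 23 reads per sample. Over the groups, the 5 B and plasma cell markers summed to 0.38 to 0.58 CPM in WT vehicle, 0.41 to 0.62 in WT tunicamycin, 0.30 to 2.73 in LKO vehicle and 0.78 to 1.6 in LKO tunicamycin livers, and none had enough reads to be tested. Cd79a, a defining B cell marker, had at most 2 reads in a sample. The 14 Kupffer cell and macrophage markers, of which 13 were tested and none passed, summed to 82.1 to 95.6, 84.6 to 113, 59.5 to 103 and 92.6 to 174 CPM in the same order of groups. The 6 dendritic cell markers summed to at most 3.33 CPM in any sample. The part of these cells in the class II values was not tested.

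**Figure D4:**
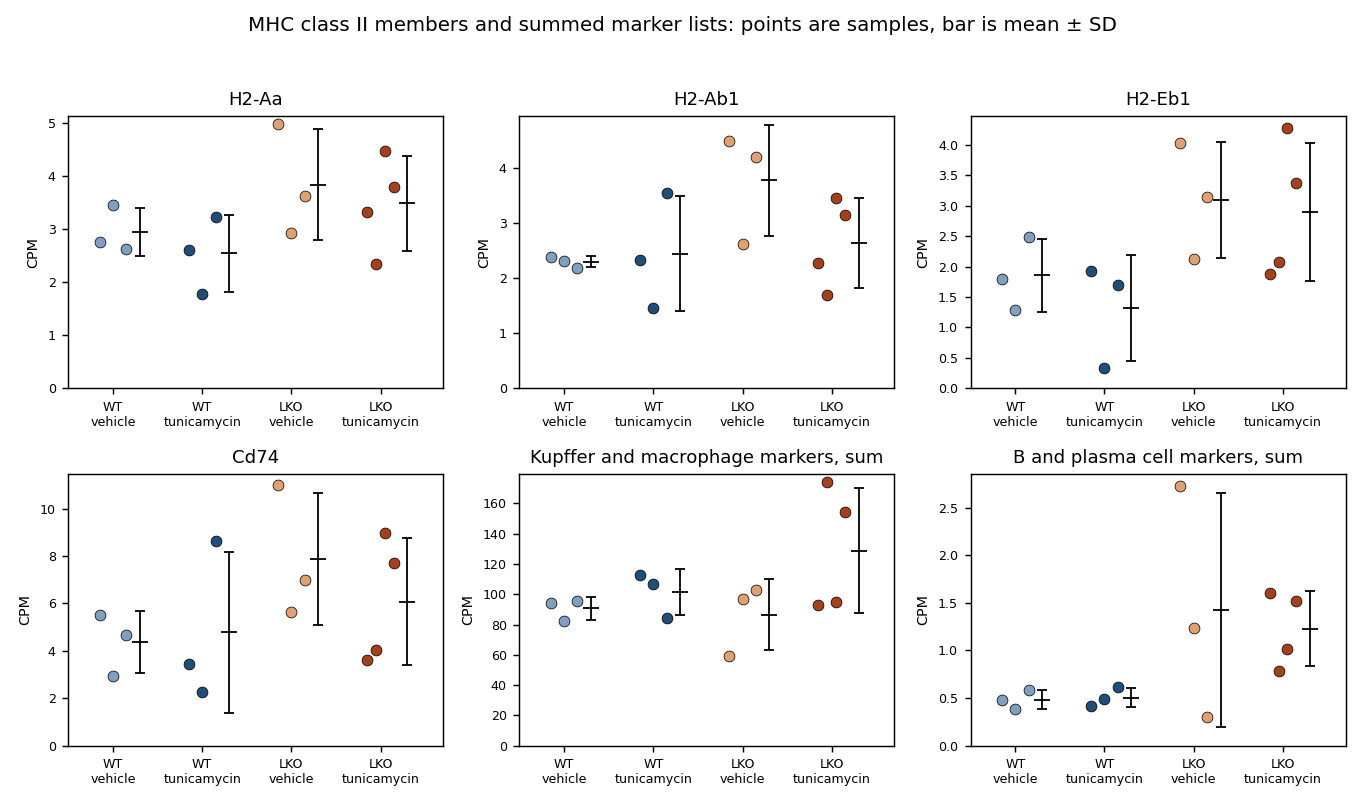
CPM on linear axes from 0, by group, for the 4 MHC class II genes and for the summed markers of Kupffer cells and macrophages and of B and plasma cells. Points are samples and the bars are mean ± SD (n = 3, or 4 in LKO tunicamycin). LKO vehicle 1 has the highest point in each class II panel of its group and in the B and plasma cell panel, and the lowest in the macrophage panel. The highest B and plasma cell point of the LKO tunicamycin livers is sample 1. Its class II sum was 11.1 CPM, against 21.2 in sample 3.

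The genotype values were also read by promoter element, as a description with no test. The 13 tested genes with an ISRE had a median averaged log2 value of 0.00, from -0.36 to 0.43, with 7 above 0 and none passing. The 18 tested genes with a promoter and no ISRE had a median of 0.11, with 12 above 0 and none passing. The 7 tested genes with a GAS element had a median of 0.00. All 3 genes that rose, Ly6e, Ifi27l2b and Parp14, are among the 12 with no promoter entry, so the elements say nothing of them.

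Further genes of the same pathways were read alongside. None of the 8 tested interferon receptor and kinase genes and none of the 8 tested transcription factors and inhibitors passed in any comparison. Of the 6 tested nucleic acid sensing genes, Ddx58 rose in LKO livers after tunicamycin (0.76, edgeR adjusted p = 0.0405) and in the averaged comparison. Of 16 tested further interferon-stimulated genes, Oasl1, an inhibitor of Irf7 translation, rose in the averaged comparison (1.21 ± 0.31, SE; adjusted p = 0.0489). Its call did not survive 12 of the 13 single-sample omissions, and 14 of the 16 had positive averaged values, with a median of 0.26. Of 10 tested further antigen presentation genes, Pdia3 (ERp57), a chaperone of the peptide-loading complex and of ER folding at large, rose with tunicamycin in WT livers (0.77, adjusted p = 0.0417), from 147, 148 and 166 CPM to 290, 220 and 278. That call did not survive 8 of the 13 single-sample omissions.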

How the data were processed

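RNA from 14 mouse liver libraries was analysed. The submitters' processing notes list Trimmomatic, STAR and Cufflinks and the build mm10. Versions and annotation are not given in the sources used here. The authors deposited whole read counts per gene in 3 columns per library (without strand, sense, antisense), and 99.5 to 99.6% of stranded reads were in the sense column, which was used. The deposited FPKM table served to set levels between genes and for alternative tests. Its LKO vehicle 2 column lists Rn45s at 0 and was left out of the levels. No per-sample column went unused (0 columns).

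The 46 genes and the other lists were chosen with earlier results of these data known. Counts were scaled by TMM and tested with edgeR 4.0.16 in R 4.3.3 (filterByExpr, 1 mean per group, 6 contrasts, Benjamini-Hochberg over 9644 genes, calls at an adjusted p under 0.05). CPM are TMM-scaled and include Rn45s. Intervals are 95% confidence intervals of the log2 fold change, with a width set by the spread between samples. The labels do not say that each sample is 1 mouse, so this spread may in part be technical. Genes named in full are those called, the 3 smallest p in each contrast, the highest CPM of each role, and Ciita and Rbbp5; 1 further gene of this rule is not reported here. Other named genes were chosen after their values were seen. Alternatives used DESeq2 1.42.0, limma 3.58.1 on log2(FPKM + pseudocount), other filters and scalings, and left-out samples. The edgeR steps were tested on simulated data. Gene positions are RefSeq's, on GRCm38.p6.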

Additional observations from a re-analysis of the deposited data

Results flagged for a closer look

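In 43 groups of 4 samples (each tested gene in LKO tunicamycin livers), 2 held a sample far from the other 3, and chance gives about 1 in 20. Gbp7 had 4.53 CPM in LKO tunicamycin replicate 1, against 7.17 to 7.55 in the others. Ifi47, another GTPase of the same response, had 4.48 CPM in LKO tunicamycin replicate 3, against 3.69 to 3.77 in the others. Neither gene passed the test in any comparison.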

How the results depend on the processing

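Without the filter on low counts 1 member was called for tunicamycin in WT (Ly6e), 2 for genotype with vehicle and 3 for genotype after tunicamycin. There 1.78, 0.517 and 1.61% of all genes passed. With DESeq2 the counts were 1, 2 and 2 (26, 0 and 7 members had no adjusted p there). Of all genes with an adjusted p in DESeq2, 3.14, 0.207 and 1.69% passed. The counts for vehicle and after tunicamycin were 2 and 3 with total count scaling, 2 and 2 with 14 libraries, 0 and 0 with log2(FPKM + 1), also without the LKO vehicle 2 column (chosen after seeing the data), and 0 and 2 with a mean FPKM of at least 1. The shares of all genes were 0.083 and 1.7% with total count scaling and 0.124 and 1.19% with 14 libraries. They were 0 and 0.0427% with log2(FPKM + 1), 0.0307 and 0.0369% without that column, and 0 and 0.869% with a mean FPKM of at least 1. With vehicle the counts were 2 in a fit of the contrast's groups only (0.275% of all genes) and 0 with log2(FPKM + 0.1) (0% of all genes). Leaving out 1 sample at a time gave 0 to 1 for tunicamycin in WT, 0 to 2 with vehicle, 0 to 2 after tunicamycin and 2 to 4 averaged over treatments, and 0 for tunicamycin in LKO and for the interaction. The share of all genes ran from 0 to 6.19, 0 to 0.171, 0 to 1.84 and 0.626 to 4.15% in the first 4 of these comparisons. With a replicate block 0 members were called with vehicle (0% of all genes) and 0 after tunicamycin (0.332%). No pairing by replicate number was seen: 18 same-numbered pairs had correlations of -0.118 to 0.141, and 2 of 13 samples correlated best with their own number. With 3 or 4 samples per group, this check cannot exclude a pairing.

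Values near 0 changed sign. Dtx3l, averaged, was 0.07 with total count scaling, 0.001 with at least 20 reads in 3 samples, 0.002 with LKO vehicle library 4 alone, 0.029 without strand, 0.093, 0.093 and 0.128 with the FPKM settings and 0.059 without LKO vehicle 2 there. Leaving out samples gave -0.07 to 0.045 for Dtx3l, -0.025 to 0.159 for Stat2, -0.154 to 0.019 for Iigp1, -0.202 to 0.146 for Parp14 with tunicamycin in WT and -0.751 to 0.033 for the Ifi27l2b interaction. With the FPKM settings Iigp1 was 0.023, 0.023 and 0.024 and the Ifi27l2b interaction 0.153, 0.153, 0.106 and, without LKO vehicle 2, 0.481. The cause was not tested. Of 921 single-gene values under an alternative, 844 kept direction and call, 33 lost the call, 19 gained it and 25 changed sign. These values cover 34 pairs of gene and comparison, most of which had no call to lose, so most of the 844 stayed uncalled. All 33 losses were of Ly6e with vehicle, Ifi27l2b after tunicamycin or Parp14 averaged over treatments. Genes with few reads, such as Isg15 and H2-Eb1, had wide intervals.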
